A study of Mus musculus with 6 samples.

Results

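The G1 cyclins, their kinases and the Rb pathway were followed in sorted mouse hematopoietic stem and progenitor cells through 10 listed genes of 49315 in the count files. These were the D-type cyclins Ccnd1, Ccnd2 and Ccnd3, the kinases Cdk4 and Cdk6 that they activate, the E-type cyclins Ccne1 and Ccne2 with their kinase Cdk2, the retinoblastoma gene Rb1, and E2f1, a transcription factor that Rb1 restrains. The genes were chosen by name and matched through their identifiers in the GENCODE annotation of GRCm38, where all 10 were found.

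RNA from LT-HSCs, ST-HSCs and MPPs was sequenced in bulk, 1 library per population and genotype, 6 libraries in all, and sets of 3 values below run in the order LT-HSC, ST-HSC, MPP. LT-HSCs, long-term stem cells, were sorted as Lin- Sca1+ cKit+ (LSK) CD48- CD34- CD150+, ST-HSCs, short-term stem cells, as LSK CD48- CD34+ CD150+, and MPPs, multipotent progenitors, as LSK CD48- CD34+ CD150-. The WT group came from C57BL/6 mice, which are described as controls of 8 to 12 weeks of age, and the ING4-/- group from mice lacking the chromatin reader ING4 in the whole body, whose age is not given in the sources used here. The marrow of 8 to 10 mice of each genotype was pooled before sorting, so the 3 libraries of a genotype may share 1 pool, and no p-value measures the spread between mice. In the genotype comparison p-values measure the spread between populations. Where genotype and population are both terms, they measure how far the population differences disagree between the genotypes.

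In a quiescent cell, Rb1 and its relatives hold E2F factors inactive on the promoters of genes for DNA replication. Mitogens raise D-type cyclins, which activate Cdk4 and Cdk6 to begin phosphorylating Rb. E2F factors so released raise E-type cyclins, and these with Cdk2 complete the phosphorylation and take the cell into S phase, while the Ink4 and Cip/Kip proteins inhibit the kinases. In the blood system, Cdk6 is known for its low level in long-term stem cells.

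The libraries of the genotypes differed in depth and background. Totals were 7839326 to 9363442 counts in WT and 35596876 to 39192588 in ING4-/-, a ratio of medians of 4.70, and 36082 to 41763 genes had a count in WT against 14680 to 16188 in ING4-/-. On 1429 olfactory and vomeronasal receptor genes, which blood cells should not transcribe, WT libraries held 18.1 to 22.7 counts per kb of exon and ING4-/- libraries at most 0.0853. Spread over all exonic length, this background came to between 22.6% and 33.4% of all WT counts. ING4-/- libraries were patchy instead, since 2657 genes had 100 or more counts in 1 of them and 3 or fewer in another, 21.1% of the 12593 that reached 100, and in WT 39 of 15865 (0.246%) did so. Ing4 itself had 247, 162 and 247 counts in the WT libraries against 0, 24 and 76 in ING4-/-, where the background alone would give 119, 121 and 96.3 counts in WT. Among the markers of the sort, Kit was found in all 6 libraries. Cd34, which the LT-HSC gate excludes, was lowest in LT-HSCs of both genotypes but present there, at 109.1 CPM in WT and 303.5 in ING4-/-. Cd48, which all gates exclude, had 50, 154 and 376 counts in WT and 0, 1077 and 4300 in ING4-/-.

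The background set which members could be read in WT. Cdk4 had 27.0 to 63.8 times the counts that the background gives for its exonic length, Cdk2 11.8 to 20.6 times, Ccnd2 13.6 to 16.0 times and Ccnd3 10.0 to 16.9 times. Cdk6 stood lower, at 2.37, 5.38 and 10.1 times.

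**Figure D1:**
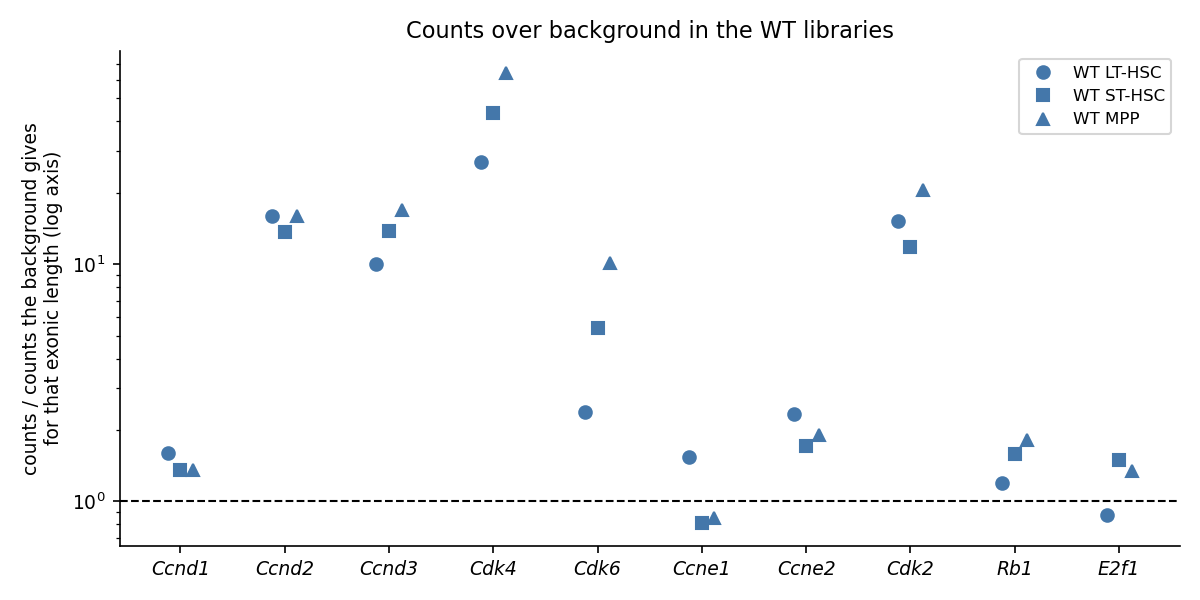
Counts of each member in the 3 WT libraries divided by the counts that the background would give over the same exonic length (vertical log axis, no unit). Circles are LT-HSCs, squares ST-HSCs and triangles MPPs, and the dashed line marks a count equal to the background. Ccnd2, Ccnd3, Cdk4 and Cdk2 lie at 10.0 or above in every library, while Ccnd1, Ccne1, Ccne2, Rb1 and E2f1 lie at 2.32 or below.

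The remaining 5 members, Ccnd1, Ccne1, Ccne2, Rb1 and E2f1, lay between 0.809 and 2.32 times the background in WT. Per kb of exon, all 3 of their WT counts were under the 95th percentile of the receptor genes, which was 77.8, 65.2 and 51.0. The same held for Cdk6 in WT LT-HSCs, with 53.1 counts per kb. Expression of these 5 genes in WT cells was not detectable above the spread of this background, which stands behind every ratio to WT given for them below.

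Levels of different genes were compared in CPM, the counts scaled to a common library total with TMM normalization, per kb of exon, given as mean ± SD over the 3 populations of a genotype. Cdk4 stood first in both genotypes, at 94.4 ± 26.8 in WT and 261.5 ± 98.4 in ING4-/- (SD, n = 3). It was followed by Cdk2 (33.7 ± 4.23 in WT, 66.6 ± 12.1 in ING4-/-), Ccnd2 (33.2 ± 4.67 and 63.4 ± 7.39) and Ccnd3 (29.2 ± 5.08 and 54.1 ± 11.6). Each of these overlapped its neighbour in the order, and Cdk4 lay apart from all of them in both genotypes. Cdk6 came next, at 12.3 ± 6.25 in WT and 15.9 ± 8.74 in ING4-/-, apart from Ccnd3 in both. In WT the other 5 members ran from Ccne2 at 4.36 ± 1.05 to Ccne1 at 2.38 ± 1.12, each overlapping the next. In ING4-/- they were Ccne2 (13.3 ± 16.6), E2f1 (9.94 ± 2.40), Ccnd1 (8.61 ± 8.24), Ccne1 (2.52 ± 4.34) and Rb1 (0.143 ± 0.174), again with overlapping ranges. The abundant part of the pathway in these cells was Cdk4, Cdk2, Ccnd2 and Ccnd3, and subtracting the background left all 10 places in the same order in both genotypes.

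**Figure D2:**
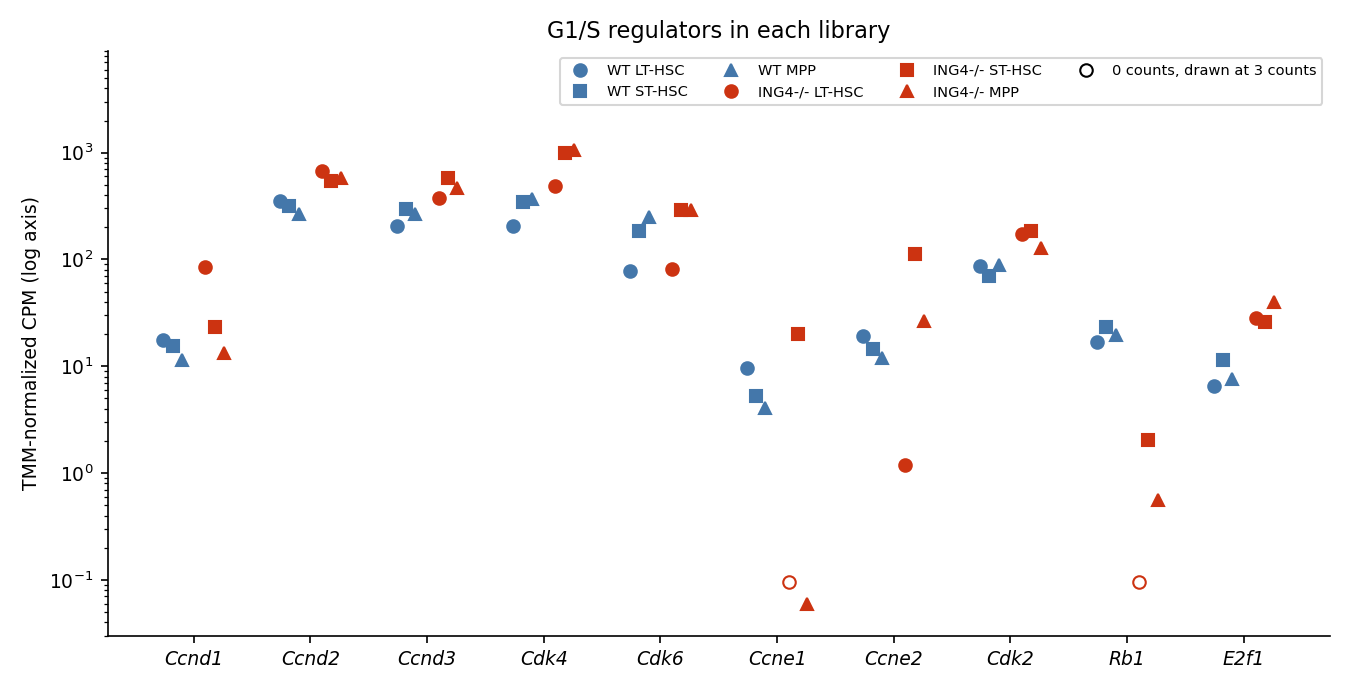
TMM-normalized CPM of the 10 members in each of the 6 libraries (vertical log axis). WT is blue and ING4-/- red, circles are LT-HSCs, squares ST-HSCs and triangles MPPs, and open symbols are libraries with 0 counts drawn at 3 counts. Every ING4-/- library is above every WT library for Ccnd2, Ccnd3, Cdk4, Cdk2 and E2f1 and below for Rb1, while Ccne1 spans from 0 to 20.05 CPM among ING4-/- libraries.

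The first comparison was that of the study's design, the 3 ING4-/- libraries against the 3 WT libraries, by edgeR's quasi-likelihood test with TMM normalization. A gene was called when its adjusted p was under 0.05 and its log2 fold change over 1 in size. Of the 10 members, 2 were called higher in ING4-/-, Cdk4 and E2f1, where 7.98% of all 31001 genes tested were called higher. One member, Rb1, was called lower, where 56.7% of all genes were. For the 9673 genes that had 10 or more counts in each library, called well-counted here, the median log2 fold change was 0.52, so a value near 0.52 was the typical one for well-counted genes on this scale. The members' median was 0.96, and 7 of 10 were above 0.52. The median over all genes tested was -6.85. In bulk RNA, fewer cells with a transcript and less transcript per cell cannot be told apart.

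Cdk4, the D-cyclin-dependent kinase (chromosome 10 from 127063534 to 127067920, plus strand), had 1969, 3202 and 3754 counts in WT and 15104, 31562 and 36243 in ING4-/-. As CPM these were 207.4, 344.7 and 368.3 in WT against 482.6, 998.1 and 1068 in ING4-/-. The ING4-/- value was higher within each population and no WT library reached the lowest ING4-/- library. The log2 fold change was 1.47 (SE 0.36, adjusted p = 0.0080 in edgeR), which is 0.95 above the median of well-counted genes. The call held with each library left out in turn, with DESeq2 (1.11, adjusted p = 0.033) and with population as a block (1.43, adjusted p = 0.0152). It was lost when only well-counted genes were fitted (0.96, adjusted p = 0.0513) and with the background subtracted (0.68, adjusted p = 0.154). In these last fits 0 members were called higher, beside 8.3% and 5.61% of the genes tested. At an unadjusted p under 0.05 in edgeR there were 2 of 8 members, Cdk4 and E2f1, beside 35.6% of well-counted genes, and 1 of 9, Ccnd1, beside 50.8% of genes after subtraction. The Cdk4 call was lost too among well-counted genes with the trend on exonic length removed (0.76, adjusted p = 0.147). With the block, Cdk4 was the 1 member called higher, beside 6.45% of genes.

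Within populations the log2 ratio of ING4-/- to WT for Cdk4 was 1.22, 1.53 and 1.54. The 95% counting interval was 1.15 to 1.29 in LT-HSCs and 1.49 to 1.59 in MPPs. Such intervals cover counting error only, as each population had 1 library per genotype.

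Cdk6, the other D-cyclin kinase (chromosome 5 from 3341485 to 3531008, plus strand), did not pass the test. It had 743, 1711 and 2566 counts in WT and 2536, 9249 and 9947 in ING4-/-, or 78.3, 184.2 and 251.8 CPM against 81.0, 292.5 and 293.2. The WT and ING4-/- values overlapped, with both LT-HSC libraries low and the ST-HSC and MPP libraries high. The log2 fold change of 0.37 (SE 0.58, adjusted p = 0.608) lay below the median of well-counted genes, and it was -0.12 among well-counted genes alone, -0.15 with the background subtracted and 1.40 (adjusted p = 0.141) among well-counted genes with the trend on exonic length removed.

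Cdk2 (chromosome 10 from 128697939 to 128705051, minus strand), partner of E-type and A-type cyclins, had 86.9, 70.1 and 88.8 CPM in WT against 172.6, 184.5 and 128.8 in ING4-/-, on 651 to 905 and 4368 to 5835 counts. The ranges did not overlap. Its log2 fold change of 0.98 (SE 0.23, adjusted p = 0.0066) passed the adjusted p but stayed under the fold required for a call. The adjusted p was not passed with DESeq2 (0.63, adjusted p = 0.065), among well-counted genes alone (0.48, adjusted p = 0.184), with the trend on exonic length removed from these (0.092, adjusted p = 0.846) or with the background subtracted (0.27, adjusted p = 0.382).

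The sequences before the starts of Cdk4 and Cdk2 are shown because these kinases had the highest mean levels per kb of exon, though Cdk2 overlapped Ccnd2. They are the 250 bases upstream of the RefSeq start on GRCm38.p6, 5′ to 3′ on the strand of the gene, with 3 kinds of motif in capitals: E2F sites (TTTCGCGC, TTTGGCGC, TTTCCCGC or TTTGCCGC), GC boxes (GGGCGG) and E-boxes (CACGTG), each on either strand. The E-box was added after the sequences had been read.
Cdk4, chr10:127063285-127063534, plus strand: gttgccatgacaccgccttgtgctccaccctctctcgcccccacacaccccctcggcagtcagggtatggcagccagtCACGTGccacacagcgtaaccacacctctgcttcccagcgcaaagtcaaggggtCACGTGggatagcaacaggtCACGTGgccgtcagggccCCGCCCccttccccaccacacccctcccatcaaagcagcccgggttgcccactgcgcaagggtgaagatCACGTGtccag
Cdk2, chr10:128705052-128705301, minus strand: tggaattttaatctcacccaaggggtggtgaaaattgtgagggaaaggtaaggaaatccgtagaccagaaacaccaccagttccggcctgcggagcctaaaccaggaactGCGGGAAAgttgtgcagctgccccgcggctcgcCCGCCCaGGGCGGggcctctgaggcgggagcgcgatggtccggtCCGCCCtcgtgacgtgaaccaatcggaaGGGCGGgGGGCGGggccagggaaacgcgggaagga

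The Cdk4 window held 4 E-boxes, the palindrome bound by Myc and related factors, and 1 GC box, with no E2F match. Of 32851 RefSeq windows of this length in the mouse, 6.02% held an E-box and 7 windows (0.0213%) held 4 or more. The Cdk2 window held 5 GC boxes and 1 E2F match, which began 140 bases before the start, where 1.86% of all windows held an E2F match and 32.7% a GC box. Of the 10 members, 6 had windows in the RefSeq set used here: Ccnd3, Cdk4, Cdk6, Ccne1, Cdk2 and E2f1. Of their 7 windows, 1 held an E2F match, 2 an E-box and 6 a GC box. These matches are letters in a window and no measurement of binding.

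Among the D-type cyclins, Ccnd2 and Ccnd3 were high and even. Ccnd2 (chromosome 6 from 127125162 to 127152193, minus strand) had 355.7, 313.8 and 267.8 CPM in WT against 674.2, 539.9 and 575.7 in ING4-/-. Ccnd3 (chromosome 17 from 47505051 to 47599691, plus strand) had 207.8, 295.7 and 263.9 CPM in WT against 375.8, 578.9 and 469.0 in ING4-/-. For both, every ING4-/- library was above every WT library. The log2 fold changes were 0.93 for Ccnd2 (SE 0.18, adjusted p = 0.0022) and 0.89 for Ccnd3 (SE 0.22, adjusted p = 0.0093), again past the adjusted p and under the fold for a call. They stood 0.41 and 0.37 above the median of well-counted genes. With the background subtracted the values were 0.21 (adjusted p = 0.439) and 0.18 (adjusted p = 0.58). With DESeq2 they were 0.56 (adjusted p = 0.129) and 0.52 (adjusted p = 0.161), and among well-counted genes alone 0.42 (adjusted p = 0.170) and 0.38 (adjusted p = 0.222). Among well-counted genes with the trend on exonic length removed both were called, at 1.32 (adjusted p = 0.0032) and 1.20 (adjusted p = 0.0116). In that fit these were the 2 members called higher, beside 4.65% of genes, and 0 of 8 were called lower, beside 4.68%. At an unadjusted p under 0.05 in edgeR there were 5 of the 8, each higher, beside 26.6% of genes.

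The separation of the groups in Ccnd2, Ccnd3, Cdk4, Cdk2 and E2f1 was frequent in these libraries. Of the 9673 well-counted genes 35.9% had every ING4-/- library above every WT library, and 12% of all 31001 genes did. With the background subtracted the groups of Ccnd2, Ccnd3, Cdk4 and Cdk2 overlapped.

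Ccnd1, the cyclin most often tied to growth factor signals (chromosome 7 from 144929931 to 144939925, minus strand), differed by population within ING4-/-. It had 169, 145 and 116 counts in WT, at the level of the background, and 2660, 736 and 452 in ING4-/-. In CPM the ING4-/- values were 85.0, 23.3 and 13.3, so LT-HSCs stood far above the others and MPPs lay within the WT range of 11.4 to 17.8. The log2 fold change was 1.44 (SE 0.73, adjusted p = 0.125). The background made up 62.4% to 73.9% of the WT counts, and with it subtracted the groups no longer overlapped, as ING4-/- MPPs were at 2.43 CPM per kb and the highest WT library at 2.18. The log2 fold change was then 2.34 (SE 0.89, unadjusted p = 0.033 and adjusted p = 0.0688 in edgeR). It was 0.32 (adjusted p = 0.594) without ING4-/- LT-HSCs, and 1.88, called at an adjusted p of 0.0352, without ING4-/- MPPs. Within populations the log2 ratio to WT was 2.26, 0.58 and 0.23, and the difference between populations was not tested for want of replicates.

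E2f1, the activating E2F factor (chromosome 2 from 154559407 to 154569892, minus strand), had 62, 107 and 77 counts in WT and 888, 814 and 1356 in ING4-/-. In CPM this was 6.53, 11.5 and 7.55 against 28.4, 25.7 and 40.0, and the groups did not overlap. E2f1 was called higher, with a log2 fold change of 1.88 (SE 0.48, adjusted p = 0.0105), 1.35 above the median of well-counted genes. The WT counts were 0.877 to 1.49 times the background. With the background subtracted the groups still did not overlap and the log2 fold change was 3.19 with a large error (SE 1.44, adjusted p = 0.118). The call was also lost with population as a block (1.90, adjusted p = 0.0740), among well-counted genes alone (1.36, adjusted p = 0.0813) or with the trend on exonic length removed (1.13, adjusted p = 0.182), and without WT LT-HSCs (1.66, adjusted p = 0.0561) or WT MPPs (1.66, adjusted p = 0.0544). DESeq2 called it at 1.5 (adjusted p = 0.0012).

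Rb1, which encodes the retinoblastoma protein (chromosome 14 from 73183673 to 73325822, minus strand), was nearly without counts in ING4-/-. It had 161, 217 and 198 counts in WT and 0, 64 and 19 in ING4-/-, from libraries more than 4 times as deep. In CPM this was 17.0, 23.4 and 19.4 against 0, 2.02 and 0.560. All 3 ING4-/- libraries were below all 3 WT libraries, as in 62.9% of all genes tested. Rb1 was called lower, with a log2 fold change of -4.52 (SE 1.57, adjusted p = 0.0372). In LT-HSCs, where ING4-/- had 0 counts, Rb1 was at least 177-fold below the WT count as it stood, on a floor of 3 counts. With the mean background taken off the WT count the value was 28.8-fold. That value is no lower bound, because the WT count lay within the spread of the background.

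The Rb1 call rested on counts that could hardly be told from background. The background alone would give Rb1 134.8, 136.8 and 108.9 counts in WT, and the WT counts were 1.19, 1.59 and 1.82 times that. With the background subtracted the log2 fold change was -3.80 (adjusted p = 0.113) and with population as a block -5.74 (adjusted p = 0.0664). The call was lost without WT LT-HSCs (-4.73, adjusted p = 0.0618), WT ST-HSCs (-4.48, adjusted p = 0.0775), WT MPPs (-4.73, adjusted p = 0.0752) or ING4-/- MPPs (-4.26, adjusted p = 0.0758). In the block and subtracted fits 0 members were called lower, beside 54.4% and 38.7% of the genes tested, and Rb1 was at an unadjusted p of 0.043 and 0.058 in edgeR. It was too low to be among the well-counted genes, of whose 8 members 0 were called lower, beside 9.68% of such genes.

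The E-type cyclins were the most uneven members in ING4-/-. Ccne1 (chromosome 7 from 38097984 to 38107534, minus strand) had 92, 49 and 41 counts in WT and 0, 634 and 2 in ING4-/-. Ccne2 (chromosome 4 from 11191351 to 11204779, plus strand) had 182, 136 and 121 counts in WT and 37, 3533 and 907 in ING4-/-. For both, ST-HSCs held the most counts of the ING4-/- libraries, 20.05 CPM for Ccne1 and 111.7 CPM for Ccne2, and LT-HSCs the fewest.

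Neither E-type cyclin passed the genotype test, with log2 fold changes of 0.08 for Ccne1 (SE 2.07, adjusted p = 0.976) and 1.61 for Ccne2 (SE 1.25, adjusted p = 0.298). Single libraries decided both values. Without ING4-/- ST-HSCs, Ccne1 was called lower at -7.40 (adjusted p = 0.0025), and without ING4-/- LT-HSCs, Ccne2 was called higher at 2.21 (adjusted p = 0.0146). With population as a block Ccne1 was at -5.44 (adjusted p = 0.292). Such gaps between libraries of 1 genotype were common in the ING4-/- libraries, as given above, and the part of library quality in them was not tested.

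**Figure D3:**
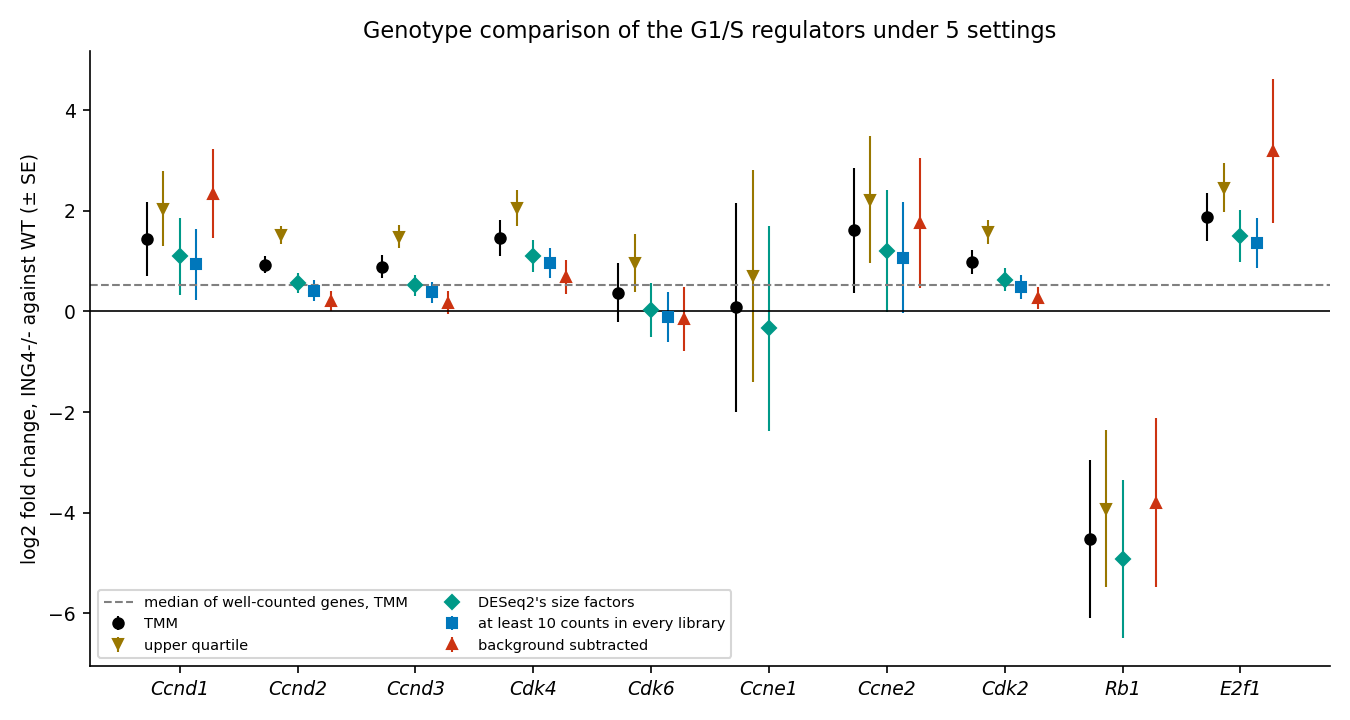
Log2 fold change of ING4-/- against WT for each member, with its SE as bars, under 5 settings: TMM on all genes tested (black), upper-quartile factors (ochre), DESeq2's size factors (green), well-counted genes alone (blue) and background subtracted (red). The dashed line is the median of well-counted genes under TMM, 0.52. Ccnd2, Ccnd3, Cdk4 and Cdk2 move down together from upper-quartile factors to background subtraction, and E2f1 is above 0 under all 5 settings. Rb1 is below 0 under the 4 settings in which it was tested, and Ccne1 was tested under 3.

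The scale between libraries moved all members together. Under upper-quartile factors 6 members were called higher, Ccnd1, Ccnd2, Ccnd3, Cdk4, Cdk2 and E2f1, beside 14.7% of all genes, and 0 lower beside 55.1%, and the median of well-counted genes was 1.12. Under DESeq2's size factors that median was 0.17, and Cdk4 and E2f1 were called. The share of 1 gene in the sum of a pair within a library does not depend on this scale, and 4 such shares were computed from counts per kb of exon. Such a share can still depend on a trend on exonic length that differs between libraries.

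Cdk6 made up less of the Cdk4 and Cdk6 sum in ING4-/- than in WT in each population. The share was 8.06% in WT LT-HSCs (95% Clopper-Pearson interval 7.45% to 8.71%), 11.04% in ST-HSCs and 13.7% for MPPs, against 3.75% (3.60% to 3.91%), 6.37% and 5.99% in ING4-/-. The groups did not overlap, and the mean of ING4-/- minus WT was -5.56 percentage points. The exact two-sided permutation p was 0.1, the smallest that 3 against 3 libraries allow, and 0.2 after adjustment over the 4 shares. With the background subtracted, the WT shares were 5.00%, 9.37% and 12.7%, the groups overlapped and the exact permutation p was 0.3. Within each population the ING4-/- share was still the lower one, at 3.75%, 6.37% and 5.99%, and this permutation does not pair the populations. As a ratio of levels, Cdk4 exceeded Cdk6 by 11.4, 8.06 and 6.30 times in WT and by 25.6, 14.7 and 15.7 times in ING4-/-. Cdk6 has 13989 exonic bases and Cdk4 3249, and no trend on exonic length was removed from these shares and ratios. Among well-counted genes with that trend removed, the genotype log2 fold change was 1.40 for Cdk6 and 0.76 for Cdk4, the reverse order.

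**Figure D4:**
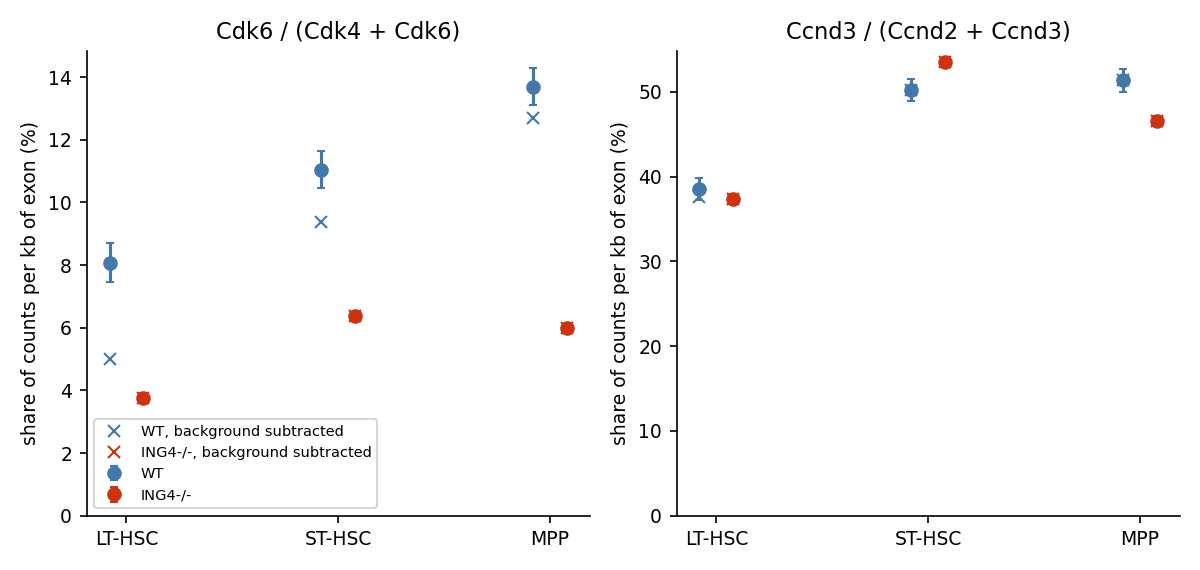
Share of Cdk6 in the sum of Cdk4 and Cdk6 (left) and of Ccnd3 in the sum of Ccnd2 and Ccnd3 (right) in each library, in percent of counts per kb of exon. Points carry 95% Clopper-Pearson intervals of counting error and crosses are the shares with the background subtracted, WT in blue and ING4-/- in red. The Cdk6 share, with no trend on exonic length removed, is lower in ING4-/- in all 3 populations, and the Ccnd3 share is lowest in LT-HSCs of both genotypes.

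Ccnd3 made up 38.5%, 50.3% and 51.4% of the Ccnd2 and Ccnd3 sum in WT and 37.4%, 53.5% and 46.6% in ING4-/-. LT-HSCs were the population with the lowest share in both genotypes, and the genotypes overlapped (exact permutation p = 0.9). The share of Ccnd1 in the sum of Ccnd1 and Ccnd2 was 9.09%, 9.04% and 7.83% in WT and 20.1%, 7.93% and 4.42% in ING4-/- (exact permutation p = 0.9). Once the background was subtracted, the WT shares were 3.85%, 2.73% and 2.35%, every ING4-/- library was above them, and the mean difference was 7.85 percentage points in place of 2.17 (exact permutation p = 0.1, adjusted 0.4). The share of Ccne1 among the E-type cyclins was 39.9%, 32.1% and 30.8% in WT and 0%, 19.1% and 0.289% in ING4-/- (exact permutation p = 0.1, adjusted 0.2). After subtraction of the background that last p was 1.0. The 0 of 37 counts in ING4-/- LT-HSCs allows a Ccne1 share of up to 12.1% (Clopper-Pearson).

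The second comparison was between populations, with genotype as a term, 2 libraries per population and 2 residual degrees of freedom. By edgeR, 0 of 31001 genes were called in any of the 3 contrasts, and so no member was. At an unadjusted p under 0.05 there were 616 genes (1.99%) for ST-HSCs against LT-HSCs, 561 (1.81%) for MPPs against LT-HSCs and 187 (0.603%) for MPPs against ST-HSCs. Of the members, 3 were among the first (Ccnd3, Cdk4 and Cdk6), 2 among the second (Cdk4 and Cdk6) and 0 among the last. DESeq2 called 88 genes higher (0.284%) and 124 lower (0.4%) in ST-HSCs than in LT-HSCs, 149 (0.481%) and 187 (0.603%) in MPPs than in LT-HSCs, and 0 between MPPs and ST-HSCs, with no member among them.

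Cdk6 had the smallest p of the members in both contrasts with LT-HSCs in edgeR. In DESeq2, for ST-HSCs against LT-HSCs, the unadjusted p was 0.0027 for Ccne1 and 0.043 for Cdk6. In WT Cdk6 went from 78.3 CPM in LT-HSCs to 184.2 in ST-HSCs and 251.8 in MPPs, and in ING4-/- from 81.0 to 292.5 and 293.2. Both LT-HSC libraries were below the other 4, where 9.39% of well-counted genes had both ST-HSC libraries above both LT-HSC libraries and 14.3% had this for MPPs. The log2 fold change was 1.55 for ST-HSCs against LT-HSCs (SE 0.25, unadjusted p = 0.0012 and adjusted p = 1.0 in edgeR) and 1.77 for MPPs against LT-HSCs (SE 0.25, unadjusted p = 0.00066 and adjusted p = 1.0). Among well-counted genes alone the adjusted p was 0.15 and 0.273. In WT LT-HSCs Cdk6 was at 2.37 times the background, and with the background subtracted the 2 values were 1.79 and 2.01.

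Cdk4 followed the same order at smaller size. It was higher in ST-HSCs than in LT-HSCs by 0.89 on the log2 scale (SE 0.17, unadjusted p = 0.0030, adjusted p = 1.0 in edgeR) and in MPPs than in LT-HSCs by 0.99 (SE 0.17, unadjusted p = 0.0019, adjusted p = 1.0). Within WT the log2 ratio of MPPs to LT-HSCs was 0.83 (counting interval 0.75 to 0.91) and within ING4-/- it was 1.15 (1.12 to 1.17). Between MPPs and ST-HSCs the fitted difference was 0.10 (SE 0.17), less than its error.

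Higher values in MPPs than in LT-HSCs within each genotype were seen in 35.4% of the well-counted genes, and the same for ST-HSCs in 30.4%. Of the 10 members 5 were higher in MPPs in both genotypes, Ccnd3, Cdk4, Cdk6, Rb1 and E2f1, and 2 were lower, Ccnd1 and Ccnd2, where 19.7% of well-counted genes were lower. Rb1 counted here only through 0 against 19 counts in ING4-/- and background-level counts in WT.

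Among the D-type cyclins the populations differed in direction. Ccnd1 was highest in LT-HSCs in both genotypes, and its log2 fold change for MPPs against LT-HSCs was -1.74 (SE 0.85, unadjusted p = 0.092). That value rested on ING4-/- LT-HSCs and was -0.74 without them. Ccnd3 was lowest in LT-HSCs in both genotypes, at 0.57 for ST-HSCs against LT-HSCs (SE 0.17, unadjusted p = 0.018, adjusted p = 1.0 in edgeR). Ccnd2 was highest in LT-HSCs in both genotypes, with -0.32 for MPPs against LT-HSCs (SE 0.17, unadjusted p = 0.123). Cdk2 had no common order, since MPPs were the highest population in WT and the lowest in ING4-/-.

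**Figure D5:**
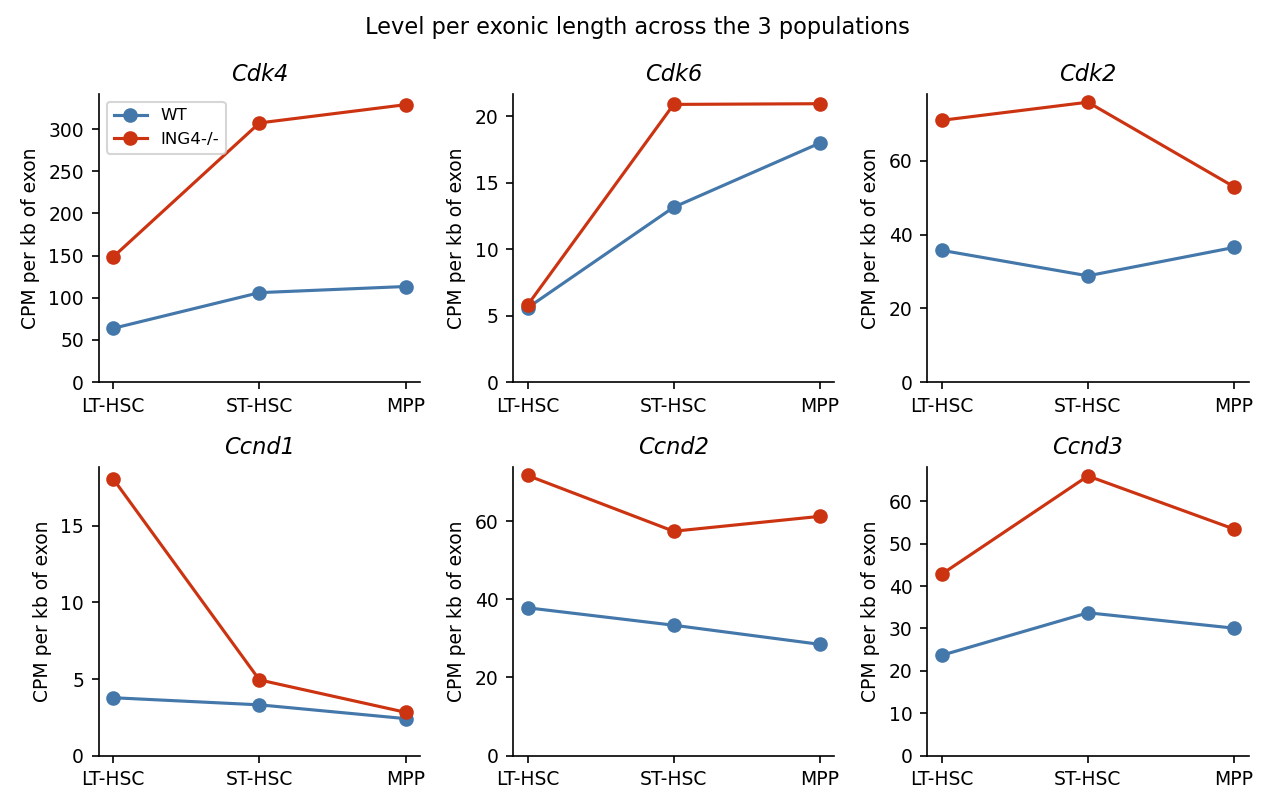
Level of Cdk4, Cdk6, Cdk2 and the 3 D-type cyclins in LT-HSCs, ST-HSCs and MPPs, in TMM-normalized CPM per kb of exon, each panel on its own axis from 0. Each point is 1 library, WT in blue and ING4-/- in red, so there are no error bars. Cdk4 and Cdk6 are lowest in LT-HSCs of both genotypes, and Ccnd1 is highest in ING4-/- LT-HSCs at 18.0.

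The other genes of the pathway were described from 6 lists of 87 genes, of which 85 were tested in the genotype comparison. In all, 14 of 85 were called higher and 9 lower, where 7.98% and 56.7% of all genes tested were, with a median log2 fold change of 0.45 beside 0.52 for well-counted genes. Among well-counted genes alone 2 of 75 were called higher and 9 lower, where 8.3% and 9.68% of such genes were. After subtraction of the background 3 and 10 of 85 were called, where 5.61% and 38.7% of genes were.

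Of the 7 CDK inhibitors 5 were tested, and 1 was called in each direction. Cdkn1c, which encodes p57, an inhibitor known for its high level in quiescent stem cells, had 47, 28 and 31 counts in WT and 1295, 1361 and 638 in ING4-/-. Its log2 fold change was 3.23 (SE 0.58, adjusted p = 0.0017), where the background alone would give 45.7, 46.4 and 36.9 counts in WT. Cdkn1a, which encodes p21, had 369, 277 and 638 counts in WT and 730, 460 and 402 in ING4-/-, and was called lower at -1.40 (SE 0.48, adjusted p = 0.034). That call was lost with population as a block and with upper-quartile factors, where 0 of 5 inhibitors were called lower, beside 54.4% and 55.1% of genes. The remaining inhibitors did not pass: Cdkn2c (p18) was at 1.16 with 1 count in ING4-/- LT-HSCs, Cdkn2d (p19) at 0.92 (adjusted p = 0.0531) and Cdkn1b (p27) at -0.56. Cdkn2a and Cdkn2b had too few counts to pass the filter of this fit.

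Among 22 E2F target genes of the G1/S transition 4 passed as higher and 1 as lower, with a median of 0.95. Fen1, a nuclease of DNA replication, was the highest at 1.64 (adjusted p = 0.0217), and Orc1, a subunit of the origin recognition complex, the lowest at -2.86 (adjusted p = 0.0023). Of the WT counts of Orc1, 293, 215 and 223, the background would give 77.9, 79.1 and 63.0, and of those of Fen1, 67, 106 and 116, it would give 54.3, 55.1 and 43.8. Among well-counted genes alone 2 of 21 were called, both lower. Of 9 other E2F and DP factors E2f6, a repressive E2F, was the only one called, at 1.18 (adjusted p = 0.0153). Its call was lost among well-counted genes alone, where 0 of 8 of this list were called higher and 1 lower, beside 8.3% and 9.68% of such genes.

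Of 9 genes of the Rb family and its partners Rbbp4, a histone-binding protein of several complexes, was called higher at 1.45 (adjusted p = 0.0087), and Lin9, a core subunit of MuvB, lower at -1.68 (adjusted p = 0.0070), where the background would give 162.3, 164.8 and 131.1 of its 490, 494 and 462 WT counts. Among well-counted genes alone 0 of 8 of this list were called higher and 1 lower, beside 8.3% and 9.68% of such genes. With the background subtracted 0 and 1 of 9 were, beside 5.61% and 38.7% of genes. Of 15 genes of the CDK-activating kinase and of cyclin turnover 2 were called higher and 1 lower. Skp1a, a core subunit of SCF ubiquitin ligases, stood at 1.88 (adjusted p = 0.00066), and Fbxw7, the SCF subunit that targets cyclin E, at -4.49 (adjusted p = 0.0054) on 406, 520 and 466 counts in WT against 7, 129 and 72 in ING4-/-, the background giving 157.9, 160.3 and 127.5 of the WT counts. Of 25 other cyclins and CDKs 5 were called in each direction. Cdk1, the mitotic kinase, was the highest at 1.58 (adjusted p = 0.0395). Among well-counted genes alone 0 of 21 of this list were called higher and 4 lower, and with the background subtracted 0 and 4 of 25, beside the same shares. Ccna1, a cyclin known from the germ line, had 122, 141 and 103 counts in WT and 0 in every ING4-/- library, at least 137-fold lower on a floor of 3 counts per library. The background would give 41.1, 41.7 and 33.2 of these WT counts, and with this mean background taken off the value was 93.3-fold.

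Summed markers of other cells differed between the genotypes in both directions, on sums from which no background was taken. The summed CPM of 8 erythroid markers was 28.4 to 52.1 in WT and 108.0 to 216.6 in ING4-/-, where 6 or 7 of the 8 had a count and Alas2 was at 0 in all 3 libraries. That of 9 granulocyte markers was 99.0 to 328.6 in WT and 368.4 to 669.6 in ING4-/-, where 8 or 9 had a count. That of 6 markers of stroma and endothelium was lower in ING4-/-, at 51.7 to 73.6 against 148.0 to 164.0 in WT, where 4 of the 6 had a count in each ING4-/- library and Lepr was at 0 in all 3. In WT only 2, 2 and 1 of these 6 were over 2 times the background, and 4 in each ING4-/- library. Of the 8 erythroid markers 3, 2 and 1 were so in WT, and of the 9 granulocyte markers 4, 5 and 5. The WT sums thus hold background counts that the ING4-/- sums lack, and the stroma sums do not show fewer such cells in ING4-/-. The genotypes overlapped for 7 T and NK cell markers, at 80.9 to 157.9 in WT and 61.5 to 308.4 in ING4-/- with Cd3e, Cd3g and Cd8a at 0 in every ING4-/- library, and for 5 megakaryocyte markers, at 266.1 to 403.4 in WT and 271.4 to 1137 in ING4-/-. The part of these in the values of the cell cycle genes was not tested.

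Other genes lie on the opposite strand of several members, and the strand setting of the counting is not given in the sources used here. Exons of such genes covered 23.4% of the exonic length of Ccnd1, 18.6% of Cdk4 (by Tspan31), 17.4% of Ccne2 (by Ints8), 14.9% of Rb1 (by Rcbtb2 and Lpar6), 7.86% of Ccnd2, 4.11% of Ccnd3 (by Bysl) and 2.63% of Cdk6. Ccne1, Cdk2 and E2f1 had none, and no member shared exons with a gene on its own strand. Without strand, reads of a member and of its opposite partner cannot be told apart over those lengths.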

How the data were processed

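The authors deposited raw counts, reads per gene over 49315 genes in 6 libraries, without normalization. Per the labels the build was mm10. Aligner, counting program and strand setting are not given in the sources used here. GENCODE's GRCm38 annotation held 49056 of the identifiers and lacked 259. Exonic lengths came with the deposited counts, and upstream sequences from RefSeq on GRCm38.p6.

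ING4-/- and WT were compared by the quasi-likelihood F test of edgeR 4.0.16 under R 4.3.3, after filterByExpr by genotype and TMM scaling, with p-values adjusted over all genes tested by the Benjamini-Hochberg method. Calls required an adjusted p under 0.05 and a log2 fold change over 1 in size. The SE is the log2 fold change over √F. Populations were compared with genotype as a term. Counting intervals are exact at 95% and cover counting error only, since reads were not tagged by molecule. A count of 0 allows 3 counts, which is 0.383 CPM in WT LT-HSCs and 0.0765 CPM in ING4-/- MPPs.

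Alternatives were DESeq2 1.42.0 and its size factors, upper-quartile factors, other filters, a subtracted background (counts per kb on 1429 receptor genes times exonic length), removal of a trend on exonic length, population as a block, and each library left out. Populations paired the libraries: deviations from the genotype means correlated across 9673 genes by r = 0.158 (LT-HSC), 0.126 (ST-HSC) and 0.131 (MPP), and same-named populations are the same cell type. No library was a copy of another, with a chi-square per degree of freedom of 14.1 or more within a genotype. The fits were run on simulated counts with a dispersion of 0.1 for every gene and no background, patchy libraries or length trend. Of 200 changed genes 136 were recovered between genotypes, with 6 false calls, and 103 for MPPs against LT-HSCs, with 1. Because those features were left out, the simulation cannot show how the fits behave on these libraries. Pandas 2.3.3 and scipy 1.17.1 were used for tables and exact tests.

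Named genes were the 10 members, the highest and lowest called gene of each list, the CDK inhibitors and Ing4. One further marker list is not reported here. The members and lists were chosen with earlier results of these data known.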

Additional observations from a re-analysis of the deposited data

Results flagged for a closer look

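Both E-type cyclins had ratios of ING4-/- to WT that ran in opposite directions in different populations, each on 1 library per genotype and beyond the counting interval. The difference between populations was not tested, since no population had replicates. For Ccne1 the log2 ratio was at most -6.66 in LT-HSCs, on a floor of 3 counts for the 0 counts of ING4-/-, and -6.09 in MPPs, but 1.93 in ST-HSCs. For Ccne2 it was -4.02 in LT-HSCs, but 2.93 in ST-HSCs and, in MPPs, 1.17. WT counts of both genes were at 0.809 to 2.32 times the background. With the background subtracted, WT MPPs had 0 counts of Ccne1 beside the 2 of ING4-/- MPPs, so the direction in MPPs turned. In LT-HSCs the value became -5.15, which is no bound, because the WT count lay within the spread of the background.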

How the results depend on the processing

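The number of members called higher was 2 under TMM, beside 7.98% of genes, and 6 with upper-quartile factors, beside 14.7%. It was 4 without a filter, beside 2741 of 44670 genes, and 1 with population as a replicate block, beside 6.45%. With at least 10 counts in every library it was 0, beside 8.3%, and with the background subtracted 0, beside 5.61%. By adjusted p alone it was 5, beside 2977 of 31001 genes. With a library left out it was between 1 and 4, for example 1 beside 1859 of 34725 genes without WT LT-HSCs and 4 beside 2804 of 32543 without ING4-/- LT-HSCs. The number called lower was 1 under TMM, beside 56.7% of genes. It was 0 with upper-quartile factors (beside 55.1%) and with at least 10 counts (9.68%, or 4.68% with the length trend removed). With the replicate block (54.4%) or the background subtracted (38.7%) it was 0 too. With a library left out it was 0 to 2, for example 0 beside 20464 of 34725 genes without WT LT-HSCs and 2 beside 19616 of 32531 without ING4-/- ST-HSCs. The block changed no other call of a member. Of the pathway genes, the 14 called higher became 5 with DESeq2 (beside 1518 of 31001 genes) or its size factors (1342), and 32 with upper-quartile factors (14.7%). They became 2 with at least 10 counts in every library (8.3%, or 4.65% with the length trend removed) and 3 with the background subtracted (5.61%). With a library left out they were 6 to 30. The 6 were without ING4-/- ST-HSCs, beside 2399 of 32531 genes, and the 30 without ING4-/- LT-HSCs, beside 2804 of 32543. The 9 called lower became 5 with upper-quartile factors, beside 55.1% of genes. The mean ratio of Cdk4 to Cdk6 levels in WT, 8.59, was 11.9 with the background subtracted.

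Genotype values changed sign for Cdk6 (-0.12 with at least 10 counts, -0.15 with the background subtracted) and Ccne1 (-0.33 with DESeq2 and with its size factors, -5.44 with the block). For MPPs against ST-HSCs, Cdk4 was at -0.0076 with DESeq2 and its size factors, and E2f1 at 0.35 with no replicate block. The causes were not tested. With a library left out, genotype log2 fold changes ranged from -0.022 to 0.80 for Cdk6, -7.40 to 0.69 for Ccne1 and -0.10 to 2.21 for Ccne2. For ST-HSCs against LT-HSCs the ranges were -0.31 to 10.91 for Ccne1, -0.44 to 0.057 for Cdk2 and -0.36 to 0.88 for E2f1. For MPPs against LT-HSCs they were -2.86 to 6.68 for Ccne1, -1.08 to 4.84 for Ccne2, -0.56 to 0.13 for Cdk2, -0.15 to 7.09 for Rb1 and -0.051 to 0.67 for E2f1. For MPPs against ST-HSCs they were -0.19 to 0.092 for Ccnd2, -9.03 to 0.57 for Ccne1, -2.88 to 1.51 for Ccne2, -0.40 to 0.24 for Cdk2, -2.56 to 1.25 for Rb1 and -0.53 to 0.61 for E2f1. The difference in share ranged from -4.98 to 3.34 percentage points for Ccnd3 and from -2.48 to 5.37 for Ccnd1.

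The background limits the WT side, where 5 members in every population, and Cdk6 in LT-HSCs, lay under the 95th percentile of the receptor genes. The limit that depth sets was not tested separately, and 1 library per population and genotype limits every statement on a population.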
